A study of Mus musculus with 12 samples.

Results

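Osmolyte and urea handling genes are the genes with which kidney cells hold their water against the salt and urea of the renal medulla. The 7 genes described here were taken by name from the 55401 genes of the mouse tables: *Nfat5*, *Akr1b3*, *Slc5a3*, *Slc6a12*, *Slc6a6*, *Slc14a1* and *Slc14a2*. All 7 were measured and all 7 passed the filter on low counts. After SK-124, *Slc5a3*, which encodes the sodium-coupled myo-inositol transporter SMIT1, rose 2.77-fold (95% interval 2.45 to 3.12), and *Slc6a6*, which encodes the taurine transporter TauT, rose 1.25-fold (95% interval 1.12 to 1.39). The other 5 genes, among them *Nfat5* itself and both urea transporter genes, did not pass the test.

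RNA from whole kidneys of 12 male C57BL6 mice, 8 weeks of age, was sequenced as 1 library per mouse. The 6 vehicle mice received an intraperitoneal injection of the carrier, 2-hydroxypropyl-beta-cyclodextrin. The 6 SK-124 mice received 40 mg/kg of SK-124, an inhibitor of the salt-inducible kinases SIK2 and SIK3, in the same way. The labels give no engineered allele and no other treatment for either group, and the groups were compared to ask which kidney transcripts respond to acute kinase inhibition. The time between injection and collection of these libraries is not given in the sources used here. The replicate numbers name different mice. A whole kidney is mostly cortex, so transcripts of the inner medulla are diluted by those of the proximal tubule.

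Cells of the inner medulla face very high concentrations of salt and urea. They balance the salt by accumulating compatible organic osmolytes, namely sorbitol, myo-inositol, betaine, taurine and glycerophosphocholine, which do not disturb proteins. The transcription factor NFAT5 (also called TonEBP) binds tonicity-responsive enhancers near the genes for aldose reductase and the osmolyte transporters and raises their transcription in hypertonic medium. Urea crosses membranes through the facilitated urea transporters UT-A and UT-B, which recycle it within the medulla. Salt-inducible kinases phosphorylate CRTC coactivators, which work with CREB at cAMP response elements.

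Expected counts summed to between 19244227 and 19771802 per mouse. Values are given as TMM-normalized CPM (counts scaled to the size of each library) for comparisons of the same gene between mice, and as TPM (also corrected for transcript length) for comparisons between genes. The 10 genes with the most counts took 44.4% to 46.8% of counts in SK-124 mice 1 to 3, against 38.6% to 43.2% in the other mice. Markers of the proximal tubule (*Slc34a1*, *Lrp2*), thick ascending limb (*Umod*), collecting duct (*Aqp2*) and endothelium (*Pecam1*) were present in every library. In whole tissue, fewer cells of a type and less RNA per cell cannot be told apart.

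Of the 7 genes, 2 passed an FDR of 0.05 (edgeR's quasi-likelihood test, Benjamini-Hochberg over the 14159 genes tested), which is 28.6% of them, both in the higher direction. Among all genes tested, 24.4% passed, 10.8% higher and 13.5% lower. The share of the 7 genes that passed was thus near that of all genes. The median log2 fold change of the 7 genes was 0.21, beside -0.0050 for all genes tested. In 2 of the 7 genes, again *Slc5a3* and *Slc6a6*, the CPM of the groups did not overlap, which held for 13.0% of all genes tested.

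**Figure D1:**
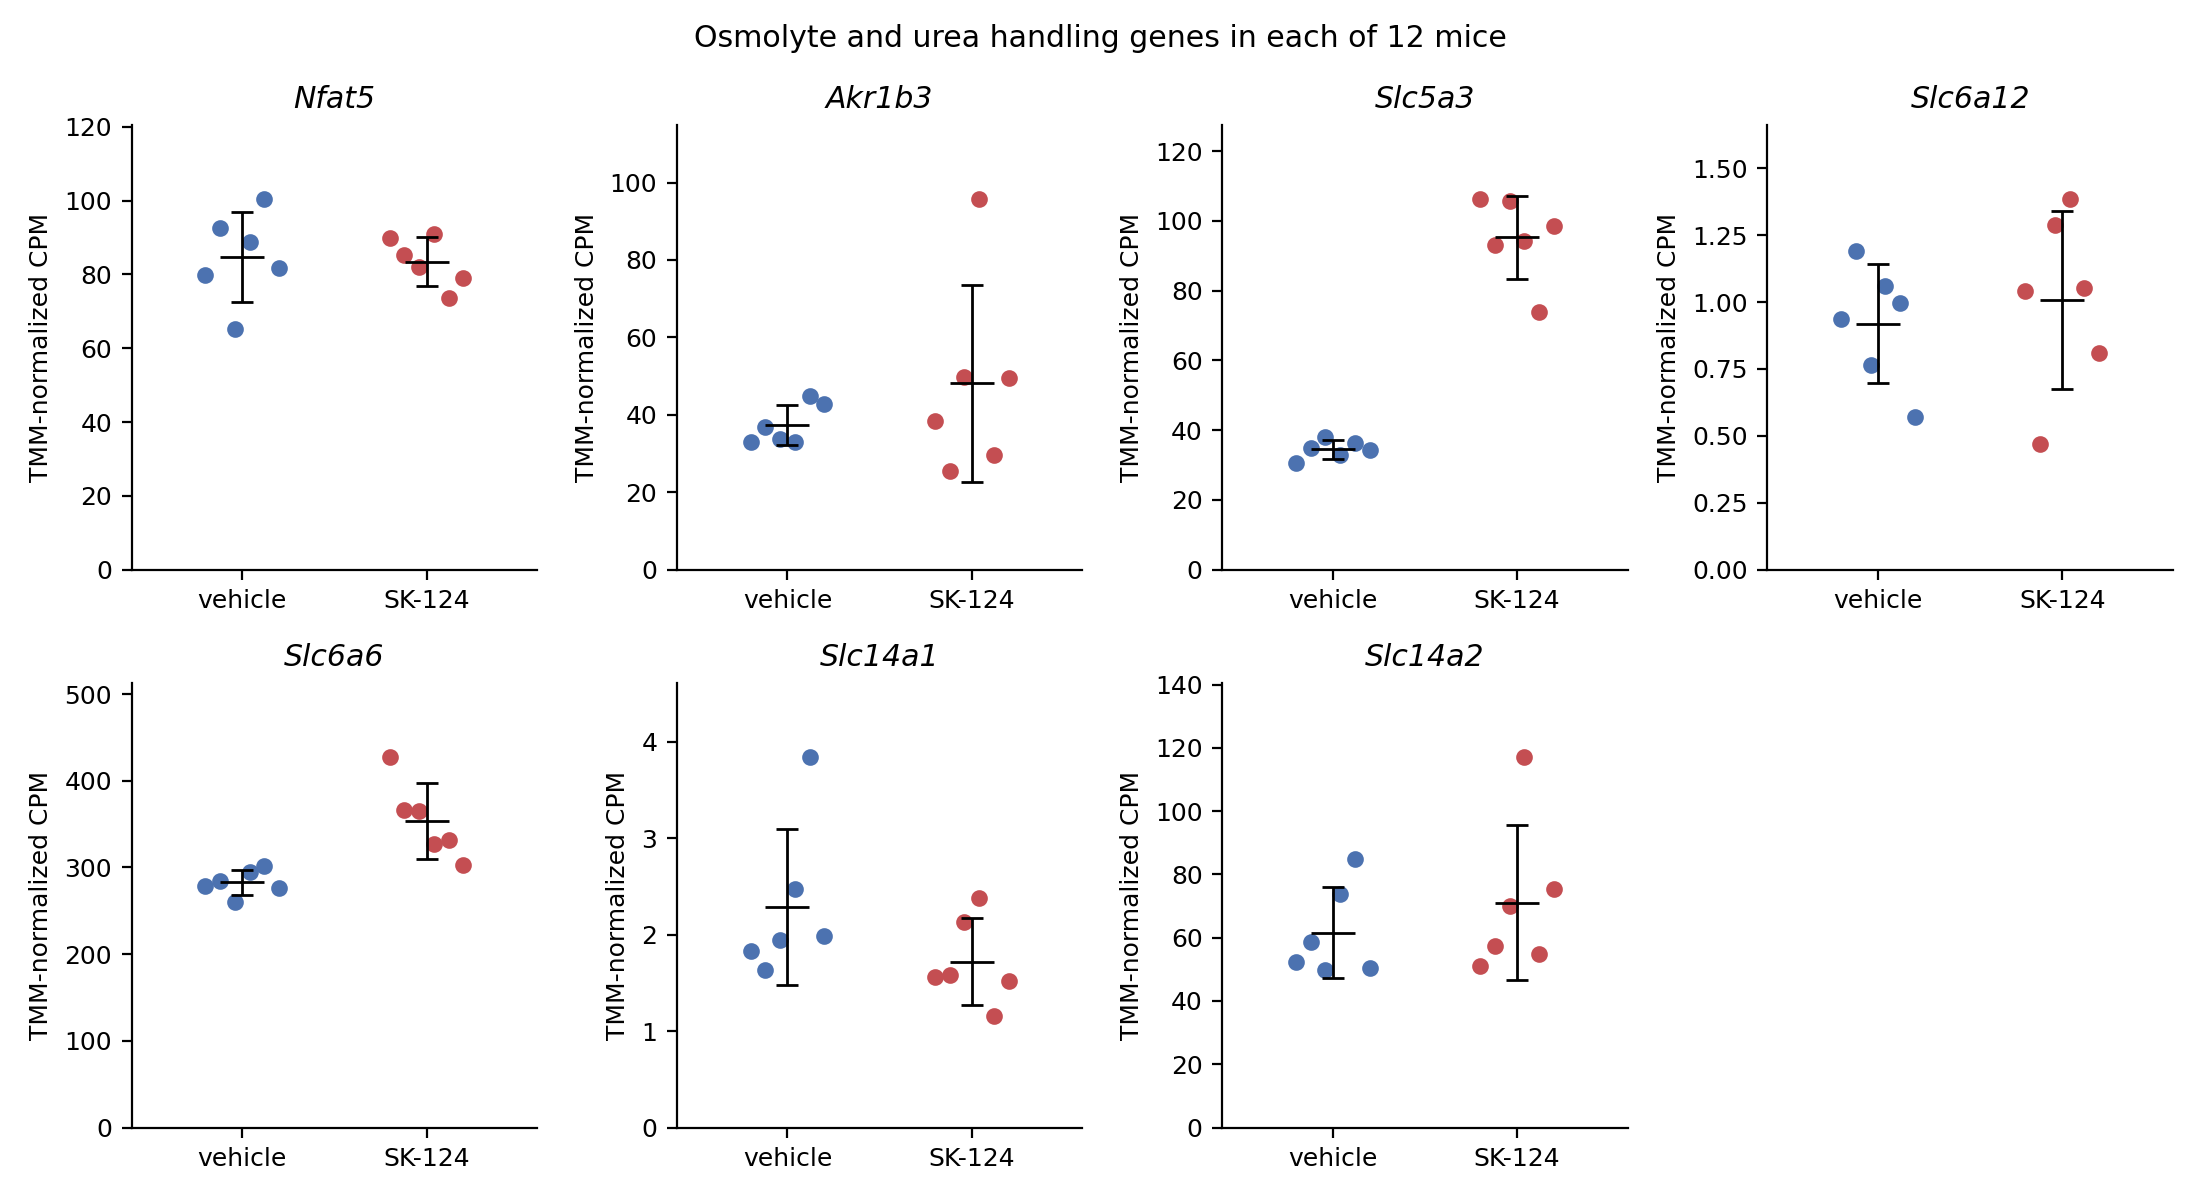
TMM-normalized CPM (vertical axis of each panel, starting at 0) of the 7 genes in 6 vehicle mice (blue) and 6 SK-124 mice (red), with the mean and SD of each group in black. Only *Slc5a3* and *Slc6a6* show no overlap between the groups, and SK-124 mouse 4 lies far above the other mice for *Akr1b3* and *Slc14a2*.

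*Nfat5* (ENSMUSG00000003847.16) encodes the tonicity-responsive factor and lies on the plus strand of chromosome 8 from 107293470 to 107379517 in GENCODE M21 (GRCm38), with no overlapping annotated gene. In vehicle mice its lowest, median and highest CPM were 65.2, 85.3 and 100.5. In SK-124 mice these were 73.6, 83.7 and 91.1. All 6 SK-124 values lay inside the vehicle range. Between the groups the log2 fold change was -0.02 (standard error 0.086, 95% interval -0.20 to 0.16, edgeR FDR = 0.881; two-sided exact permutation test p = 0.900). The interval in fold is 0.868 to 1.12. The sign of so small a value turned with the mice included, as given at the end.

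*Slc5a3* (ENSMUSG00000089774.2) lies on the plus strand of chromosome 16 from 92058322 to 92087473. SMIT1 carries myo-inositol into the cell with sodium. Its lowest, median and highest CPM were 30.5, 34.5 and 37.9 in vehicle mice. In SK-124 mice they were 73.8, 96.3 and 106.3. Every SK-124 mouse was above every vehicle mouse, and SK-124 mouse 5, the lowest of its group, still had 1.95 times the highest vehicle value. This gave a log2 fold change of 1.47 (standard error 0.082, edgeR FDR = 7.46e-10). The two-sided exact permutation test gave p = 0.00216, the smallest that 6 against 6 mice allow. By p-value *Slc5a3* stood at rank 38 of the 14159 genes tested, and by log2 fold change at rank 119 from the top.

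*Slc5a3* shares its first exon with *Mrps6*, which encodes a mitochondrial ribosomal protein. The shared exonic stretch runs from 92058322 to 92058480 and makes up 1.46% of the exonic bases of *Slc5a3*. The mean of *Mrps6* was 27.5 CPM with vehicle and 39.3 CPM with SK-124 (SD 2.60 and 6.59, n = 6 each), so that the gene rose by 0.52 on the log2 scale (standard error 0.099, edgeR FDR = 0.000848). For *Slc5a3* the means were 34.4 ± 2.64 and 95.2 ± 11.9 CPM (SD, n = 6 each). The log2 fold change of *Mrps6* was the smaller of the pair, and the difference between them was not tested. RSEM's posterior standard deviation for the count of *Slc5a3* was at most 0.9 reads in any mouse, of 618 to 1943 expected counts.

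The start sites that RefSeq gives for *Slc5a3* and *Mrps6* are 14 bp apart, so nearly the same bases precede both. They are shown because this is the stretch in front of the gene with the clearest change, with the GC box GGGCGG, searched on both strands, in capitals. The 250 bases before the *Slc5a3* start, chr16:92058072-92058321 on the plus strand of GRCm38.p6, are
Slc5a3: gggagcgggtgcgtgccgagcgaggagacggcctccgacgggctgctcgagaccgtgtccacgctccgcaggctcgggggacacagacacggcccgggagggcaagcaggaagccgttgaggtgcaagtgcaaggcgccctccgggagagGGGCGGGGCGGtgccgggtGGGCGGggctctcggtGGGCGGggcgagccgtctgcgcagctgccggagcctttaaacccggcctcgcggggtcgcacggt
They hold 4 copies of the GC box, the first and second of which share a base, and 32.7% of the 32851 RefSeq promoter windows of this length hold at least 1. Neither the core of the tonicity-responsive enhancer, TGGAAA, nor the cAMP response element, TGACGTCA, nor its shorter form, TGACG, occurs on either strand of this window. These are found in 18.6%, 1.55% and 17.8% of all windows, respectively. Bases farther from the start were not searched, so the absence of these motifs holds for this window only. The promoter table held windows for 3 of the 7 genes (*Nfat5*, *Slc5a3* and *Slc6a12*).

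*Slc6a12* (ENSMUSG00000030109.15) encodes the betaine and GABA transporter BGT1 and lies on the plus strand of chromosome 6 from 121343076 to 121365775. The tonicity-responsive enhancer was described in the dog gene for this transporter, and the mouse promoter is shown for that motif. RefSeq gives 5 windows for *Slc6a12*. The first, chr6:121342324-121342573 on the plus strand of GRCm38.p6, is
Slc6a12: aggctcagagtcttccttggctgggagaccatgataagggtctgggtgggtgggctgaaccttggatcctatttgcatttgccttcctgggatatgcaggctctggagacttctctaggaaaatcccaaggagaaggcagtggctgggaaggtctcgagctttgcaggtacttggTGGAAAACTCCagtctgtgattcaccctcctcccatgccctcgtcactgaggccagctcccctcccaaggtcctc
The capitals mark the match to the full tonicity-responsive enhancer consensus, which was found in 4.31% of all windows. It starts 75 bases before the start site of this first window, which lies upstream of the gene start given above. It contains TGGAAA. The other 4 windows of the gene hold no match to the consensus, among them the window that ends directly before the gene start at 121343076. The *Nfat5* window holds neither this consensus nor its core.

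With 8 to 28 expected counts per mouse, *Slc6a12* was near the floor of the assay. The lowest, median and highest CPM were 0.569, 0.967 and 1.19 in vehicle mice and 0.468, 1.05 and 1.39 in SK-124 mice. The groups overlapped almost fully. The log2 fold change was 0.14 (standard error 0.24, 95% interval -0.37 to 0.65, edgeR FDR = 0.719; two-sided exact permutation p = 0.686). In fold, the interval runs from 0.776 to 1.57. With TPM in place of counts the sign turned, to -0.10 on the log2(TPM + 1) scale.

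*Slc6a6* (ENSMUSG00000030096.8) lies on the plus strand of chromosome 6 from 91684053 to 91759066. TauT takes up taurine with sodium and chloride. The lowest, median and highest CPM were 260.3, 281.7 and 301.8 in vehicle mice, a narrow spread. In SK-124 mice they were 302.3, 347.9 and 427.6. The groups did not overlap in CPM, but they nearly touched, at 301.8 against 302.3 CPM. In TPM they overlapped, with 37.55 to 53.15 in vehicle mice and 47.65 to 58.57 in SK-124 mice. SK-124 mice 1 to 3 had 427.6, 366.7 and 364.8 CPM, and mice 4 to 6 had 326.6, 331.1 and 302.3 CPM. The log2 fold change was 0.32 (standard error 0.073, 95% interval 0.17 to 0.47, edgeR FDR = 0.0034; two-sided exact permutation p = 0.00216).

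The rise of *Slc6a6* was the less stable of the 2 calls. With SK-124 mice 4 to 6 alone the log2 fold change was 0.18 (edgeR FDR = 0.0694), and with SK-124 mice 1 to 3, whose top genes took the larger share of counts, it was 0.45. With library totals as the scale, for which the median of all genes tested was -0.12, it was 0.20 (edgeR FDR = 0.0373). With limma on log2(TPM + 1) it was 0.18 (FDR = 0.166), where the median of all genes tested was -0.11. The part of the top genes' share in this result was not tested.

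*Akr1b3* (ENSMUSG00000001642.18) encodes aldose reductase, which makes sorbitol from glucose, and lies on the minus strand of chromosome 6 from 34302434 to 34317478. In vehicle mice its lowest, median and highest CPM were 32.9, 35.2 and 44.8. In SK-124 mice they were 25.5, 43.9 and 95.8, a far wider spread on both sides of the vehicle range. SK-124 mouse 4 alone had 95.8 CPM, and the next highest mouse 49.7. Its log2 fold change was 0.37 (standard error 0.23, 95% interval -0.13 to 0.86, edgeR FDR = 0.287; two-sided exact permutation p = 0.478). Without SK-124 mouse 4 it was 0.05. The SD of log2(CPM + 0.5) of *Akr1b3* in SK-124 mice was 0.67, above that of 99.6% of the genes tested, and in vehicle mice 0.19, above that of 70.0%.

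The other genes of the aldo-keto reductase 1B family lie near *Akr1b3* and resemble it in sequence. *Akr1b7* went from 1.02 ± 0.267 to 1.91 ± 0.654 CPM (SD, n = 6 each; log2 fold change 0.91, edgeR FDR = 0.00982), and *Akr1b8* from 1.32 ± 0.234 to 2.08 ± 0.501 CPM (SD, n = 6 each; log2 fold change 0.66, edgeR FDR = 0.0122). *Akr1b10* had 20.7 ± 1.42 and 20.2 ± 0.457 CPM (SD, n = 6 each; edgeR FDR = 0.756). RSEM's posterior standard deviation for the count of *Akr1b3* was at most 1.66 reads, of 437 to 1935 expected counts. These family members were chosen for their sequence after their values were seen.

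**Figure D2:**
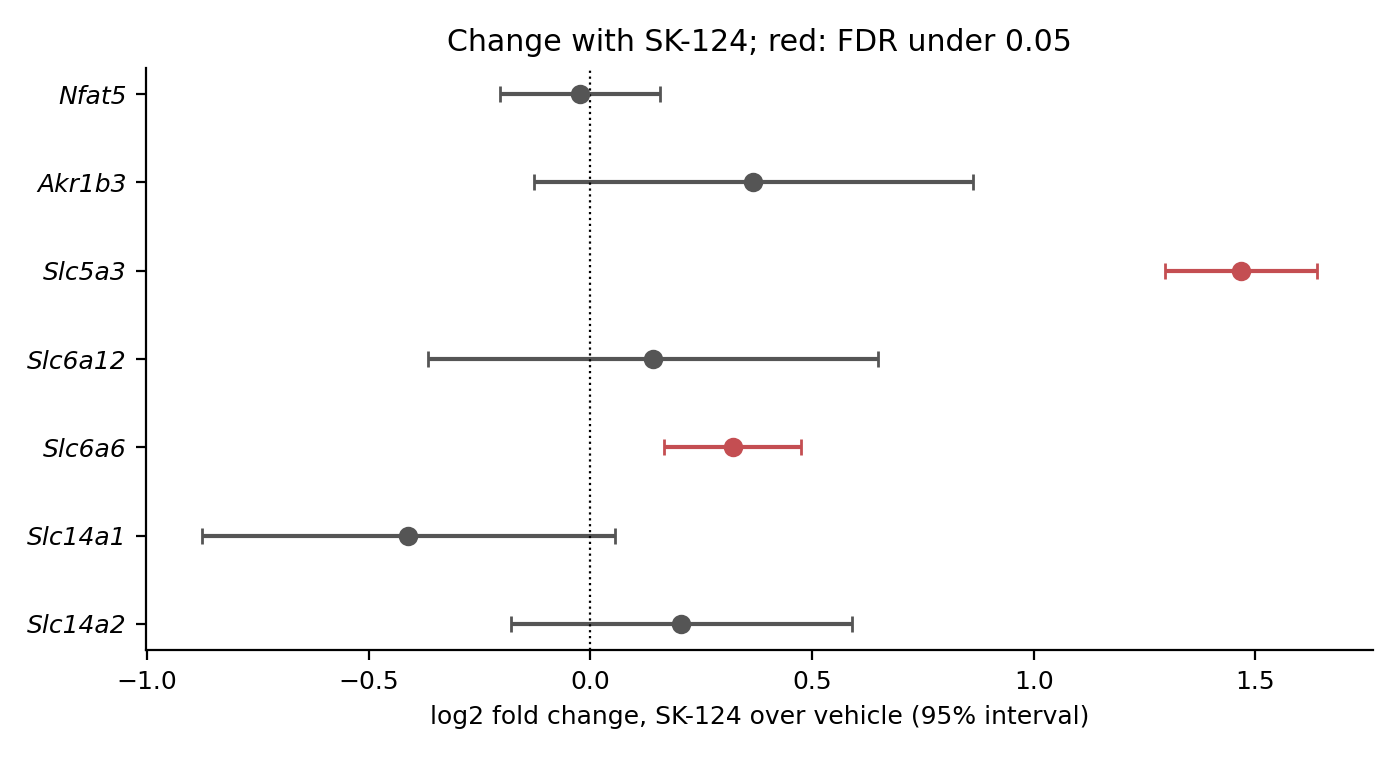
Log2 fold change of each gene, SK-124 over vehicle (horizontal axis), from edgeR's quasi-likelihood fit, with its 95% interval and 6 mice per group. Red marks an FDR under 0.05: *Slc5a3* at 1.47 and *Slc6a6* at 0.32, while the intervals of the other 5 genes cross 0.

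The urea transporter genes lie side by side on the minus strand of chromosome 18, with 4028 bp between them. *Slc14a2* (ENSMUSG00000024552.16), from 78146148 to 78596942, encodes the UT-A proteins of the collecting duct and thin descending limb, whose isoforms are not told apart in a gene total. Its lowest, median and highest CPM were 49.7, 55.5 and 84.8 in vehicle mice. In SK-124 mice they were 51.1, 63.7 and 117.2, and 5 of the 6 lay inside the vehicle range. The log2 fold change was 0.21 (standard error 0.18, 95% interval -0.18 to 0.59, edgeR FDR = 0.459; two-sided exact permutation p = 0.474). Without SK-124 mouse 4, which had 117.2 CPM, it was 0.0042.

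*Slc14a1* (ENSMUSG00000059336.14), from 78100091 to 78142119, encodes UT-B of erythrocytes and the descending vasa recta. With 23 to 81 expected counts per mouse it was among the least abundant of the 7 genes. The lowest, median and highest CPM were 1.64, 1.97 and 3.84 in vehicle mice and 1.15, 1.57 and 2.38 in SK-124 mice. The highest value came from vehicle mouse 5, and 1 of the 6 SK-124 mice exceeded the vehicle mean. In edgeR's fit the log2 fold change was -0.41 (standard error 0.22, 95% interval -0.88 to 0.055, edgeR FDR = 0.199; two-sided exact permutation p = 0.141). Without vehicle mouse 5 it was -0.20. Of 6 erythroid markers, 5 were tested, with 0 called by edgeR, DESeq2 or limma and 0 at an unadjusted p under 0.05. The erythroid sum ranged from 457 to 1257 CPM in vehicle mice and from 547 to 785 CPM in SK-124 mice. Summed endothelial markers ranged from 319 to 422 and from 263 to 409 CPM. Of the 8 endothelial markers, *Kdr* and *Tek* were called lower, 25% beside 13.5% lower and 24.4% called of all genes tested. *Pecam1* (0.07), *Cdh5* (0.29) and *Flt1* (0.12) had positive log2 fold changes, and *Emcn*, *Plvap* and *Tie1* negative ones, none of which passed. The part of these 2 marker sums in the *Slc14a1* value was not tested.

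SK-124 mouse 4 stood apart for *Akr1b3* and *Slc14a2* together, and markers of the collecting duct principal cell were examined beside them. *Aqp2*, the water channel of that cell, had 239.2 CPM in this mouse, the highest of the 12, and ranged from 119.2 to 212.9 CPM in the other SK-124 mice and from 85.1 to 143.1 CPM in vehicle mice. The summed level of all 9 principal cell markers was 522 CPM in SK-124 mouse 4, again the highest, with 352 to 468 CPM in vehicle mice and 360 to 492 CPM in the other SK-124 mice. Without *Aqp2* the sum of the remaining 8 was 283 CPM in this mouse, the highest of the SK-124 mice but inside the vehicle range of 267 to 325 CPM. This sum of 8 had a mean of 294 CPM in vehicle mice and 260 CPM in SK-124 mice, and its members *Hsd11b2* and *Avpr2* were called lower. A change of markers with treatment and a change in cell content cannot be told apart in it. Summed thin limb markers were 104 CPM in SK-124 mouse 4, where vehicle mice ranged from 74.3 to 109 CPM. Proximal tubule markers summed to 7092 CPM in this mouse, the lowest of the 12, with 7678 to 8578 CPM in vehicle mice. Over the 12 mice, after subtracting the group means and on the log2 scale, *Akr1b3* followed the sum of the 9 principal cell markers with r = 0.83 (permutation p = 0.00174, adjusted p = 0.0576) and rho = 0.85 (permutation p = 0.00052, adjusted p = 0.0127). It had r = 0.74 without SK-124 mouse 4 and vehicle mouse 5, the mice farthest from the median. With *Aqp2* left out of the sum, r was 0.69 (permutation p = 0.00387, adjusted p = 0.0576), rho 0.76 (permutation p = 0.00513, adjusted p = 0.0838), and r without the same mice 0.57.

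*Slc14a2* followed the thin limb sum with r = 0.77 (permutation p = 0.00353, adjusted p = 0.0576) and rho = 0.59 (permutation p = 0.0518, adjusted p = 0.314), and the principal cell sum with r = 0.70 (permutation p = 0.0221, adjusted p = 0.127) and rho = 0.44 (permutation p = 0.184, adjusted p = 0.372). Without SK-124 mouse 4 and vehicle mouse 5 these values of r were 0.47 and 0.26. Adjustment was over 49 relations of the 7 genes with marker sums, of which 0 passed for r, where 13 had an unadjusted permutation p under 0.05, and 2 passed for rho, that of *Akr1b3* above and that of *Slc6a12* with the thin limb sum. The latter had r = 0.77 (permutation p = 0.0047, adjusted p = 0.0576) and rho = 0.89 (permutation p = 0.0004, adjusted p = 0.0127), with r = 0.90 without SK-124 mouse 4 and vehicle mouse 5. The part of cell content in the values of SK-124 mouse 4 was not tested.

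**Figure D3:**
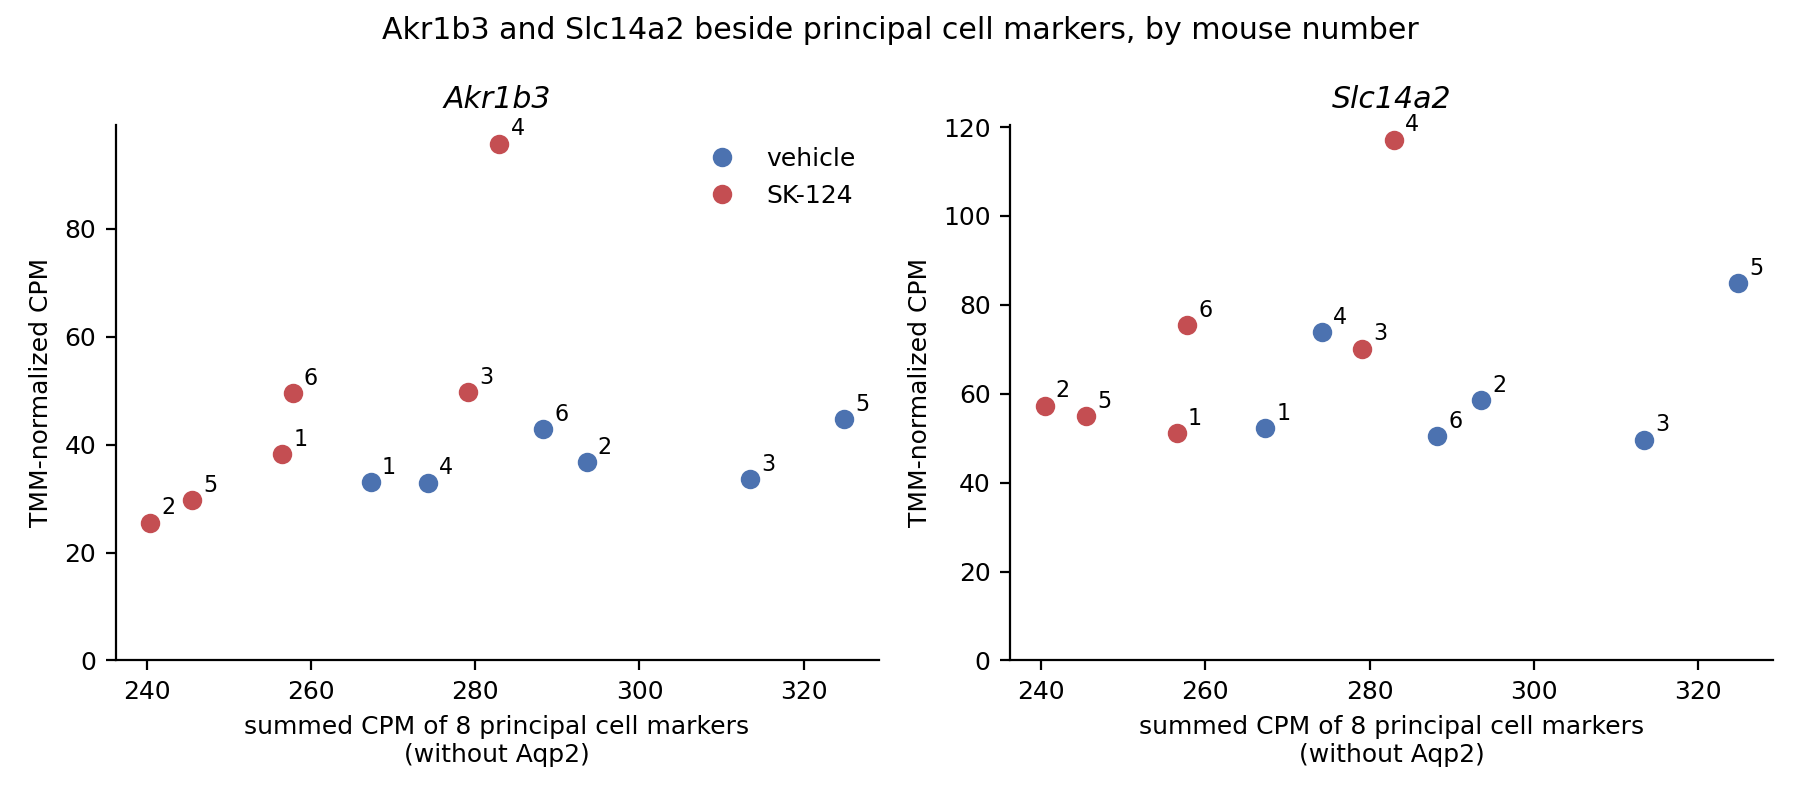
TMM-normalized CPM of *Akr1b3* and *Slc14a2* (vertical axes, from 0) against the summed CPM of 8 principal cell markers without *Aqp2* (horizontal axes, not from 0), 1 point per mouse with its number, vehicle blue and SK-124 red. SK-124 mouse 4, at 95.8 CPM of *Akr1b3* and 117.2 CPM of *Slc14a2*, lies above vehicle mice with a similar marker level, and within the SK-124 mice those with more marker signal tend to have more *Akr1b3*. The marker sum had a lower mean with SK-124 (260 CPM) than with vehicle (294 CPM). Equal marker levels across the groups therefore need not mean equal cell content.

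Per transcript length, in TPM, the order in vehicle mice was *Slc6a6*, *Akr1b3*, *Slc14a2*, *Nfat5*, *Slc5a3*, *Slc6a12* and *Slc14a1*. *Slc6a6* had 45.9 ± 5.20 TPM and *Akr1b3* 35.8 ± 6.65 TPM (SD, n = 6 each). *Slc14a2* followed with 21.7 ± 5.57 TPM, *Nfat5* with 8.32 ± 1.69 TPM and *Slc5a3* with 2.97 ± 0.276 TPM (SD, n = 6 each). *Slc6a12* and *Slc14a1* came last with 0.835 ± 0.184 and 0.660 ± 0.238 TPM (SD, n = 6 each). The effective length that RSEM used for *Slc6a12* ran from 617 to 2320 bases between mice, on 8 to 28 counts, so its TPM and its place beside *Slc14a1* rest on that estimate. *Slc6a6* was above 91.3% of the genes tested and *Slc14a1* above 11.6%. Each gene exceeded the next in 6 of 6 vehicle mice (two-sided exact sign-flip permutation test on log2(TPM + 0.1), p = 0.0313, the smallest that 6 mice allow), except *Slc6a12* against *Slc14a1* (5 of 6 mice, p = 0.156). The ranges of *Slc6a6* and *Akr1b3*, of *Akr1b3* and *Slc14a2*, and of *Slc6a12* and *Slc14a1* overlapped.

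The order of the means was the same in SK-124 mice, but *Slc5a3* closed on *Nfat5*. *Slc5a3* had 7.40 ± 0.911 TPM and *Nfat5* 7.81 ± 0.870 TPM (SD, n = 6 each), with *Nfat5* higher in 3 of 6 mice (exact sign-flip permutation p = 0.375), so these neighbours did not differ beyond their spread. *Slc6a6*, at 52.1 ± 4.67 TPM, was above *Akr1b3*, at 40.7 ± 23.1 TPM, in 5 of 6 mice (exact sign-flip permutation p = 0.156). *Slc6a12* was above *Slc14a1* in 5 of 6 (exact permutation p = 0.0625). The remaining neighbours differed in 6 of 6 mice.

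**Figure D4:**
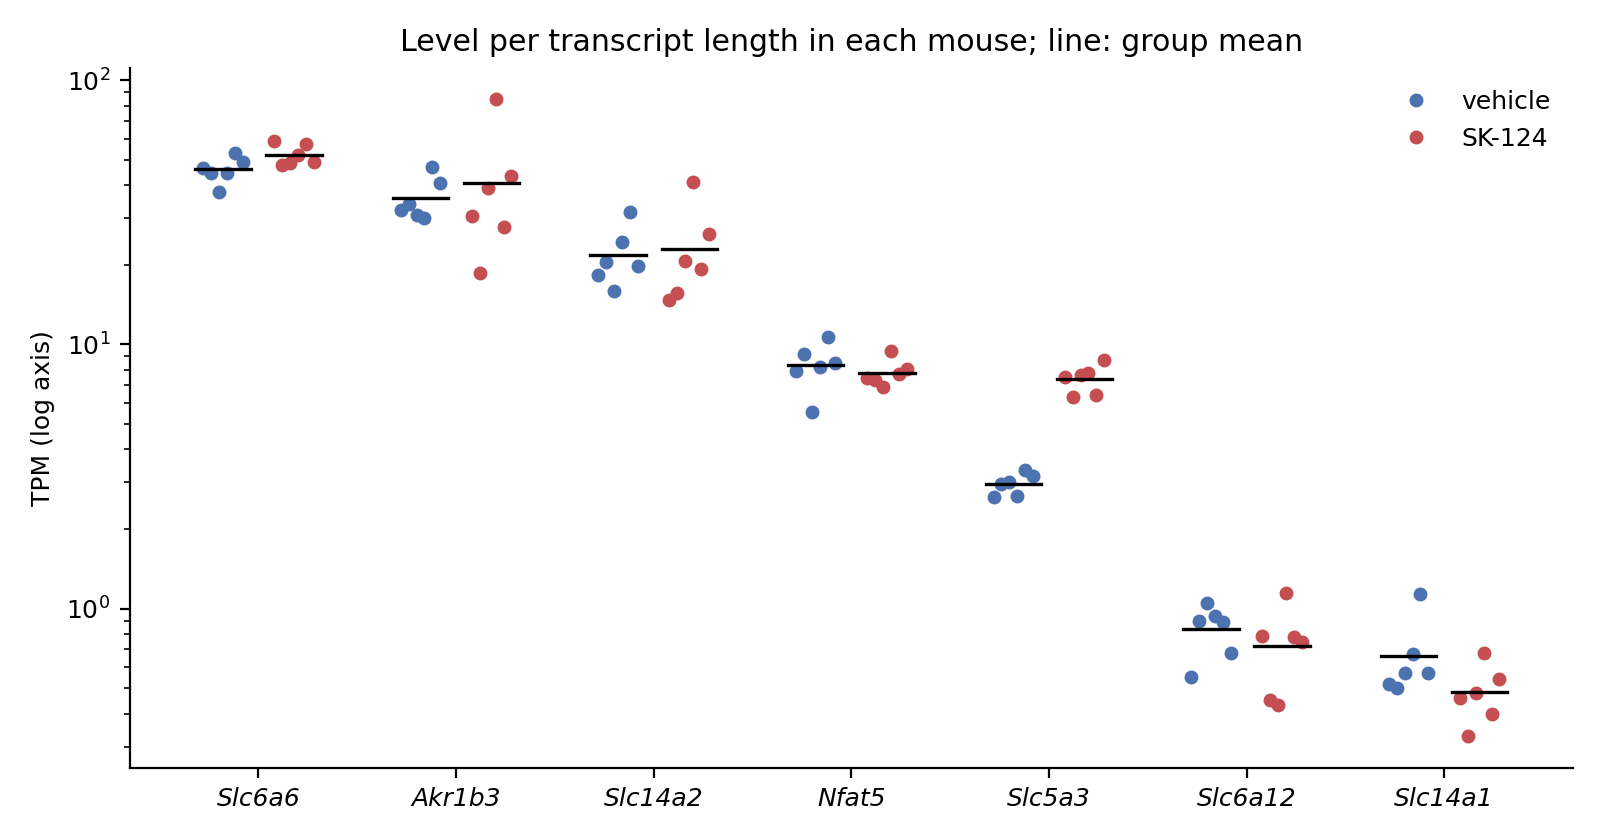
TPM on a log axis for the 7 genes in order of their vehicle mean, with 1 point per mouse (vehicle blue, SK-124 red) and a line at each group mean. *Slc5a3* moved from 2.97 to 7.40 TPM, next to *Nfat5* at 7.81, while *Slc6a12* and *Slc14a1* stayed near or below 1 TPM in most mice.

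Whether the genes varied together from mouse to mouse was examined over the 12 mice on log2(CPM + 0.5), after subtracting the group means. Of 21 pairs, 19 had a positive Pearson's r, 4 had an unadjusted permutation p under 0.05, and 0 passed after Benjamini-Hochberg adjustment over the pairs, for r or for rho. The urea transporter genes gave the closest pair, with r = 0.77 (permutation p = 0.00281, adjusted p = 0.0590) and Spearman's rho = 0.66 (permutation p = 0.0224, adjusted p = 0.293). Without the 2 mice farthest from the median, SK-124 mouse 4 and vehicle mouse 5, r was 0.50. *Akr1b3* and *Slc14a2* had r = 0.77 (permutation p = 0.0106, adjusted p = 0.107) and rho = 0.64 (permutation p = 0.0477, adjusted p = 0.334), and r was 0.55 without SK-124 mice 2 and 4. *Slc5a3* and *Nfat5* had r = 0.19 (permutation p = 0.506, adjusted p = 0.664) and rho = 0.20 (permutation p = 0.538, adjusted p = 0.702), with r = 0.58 without vehicle mice 3 and 5.

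The tested genes with the pattern most like each of the 7 over the 12 mice, by the same r, are given as a description only. For *Nfat5* they were *Irs2* (r = 0.95), *Vezf1* (0.93) and *Myo10* (0.92). For *Slc5a3* they were *Laptm4a* (0.91), *Cabcoco1* (0.90) and *Cbr2* (0.88), and none of these passed the test between groups. For *Slc6a6* they were *Prox1* (0.91), *Lrat* (0.87) and *Mgat2* (0.87). *Akr1b3* was followed by *Itga2* (0.95), *Klf16* (0.95) and *Hotairm1* (0.94), *Slc6a12* by *Fabp5* (0.88), *Tspoap1* (0.88) and *Sri* (0.87). *Slc14a2* was followed by *Corin* (0.95), *Fst* (0.94) and *Zbtb21* (0.93), and *Slc14a1* by *Btg2* (0.93) and *Nr4a1* (0.92). Spearman's rho of these genes ranged from 0.69 to 0.94, and r without the 2 mice farthest from the median from 0.58 to 0.92. All these values share the 12 libraries and their depth.

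Genes around the 7 were counted in lists of related function. Of 16 genes of osmolyte synthesis and breakdown, 2 rose and 1 fell (18.8% called, beside 24.4% of all genes tested), with a median log2 fold change of 0.01. *Pnpla7*, a phospholipase that releases glycerophosphocholine, rose (0.42, edgeR FDR = 0.00262), as did *Cdo1*, the cysteine dioxygenase of taurine synthesis (0.25, edgeR FDR = 0.0243). *Impa2*, an inositol monophosphatase, fell (-0.35, edgeR FDR = 0.0056). *Miox*, which breaks down myo-inositol, had a log2 fold change of 0.01 (edgeR FDR = 0.934), and *Sord*, which oxidizes sorbitol, -0.01 (edgeR FDR = 0.903). *Miox* and *Sord* were chosen after their values were seen, as the enzymes next to SMIT1 and aldose reductase.

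Of 12 other genes of osmolyte transport and volume regulation, 3 rose and 1 fell (33.3% called, beside 24.4% of all genes tested), with a median log2 fold change of -0.08. *Slc38a2*, the amino acid transporter SNAT2, had a median of 34.8 CPM in vehicle mice and 65.3 CPM in SK-124 mice without overlap (0.98, edgeR FDR = 3.99e-07). *Lrrc8a*, the obligatory subunit of the volume-regulated anion channel through which taurine and myo-inositol leave swollen cells, went from 22.7 to 32.3 CPM in the medians, again without overlap (0.46, edgeR FDR = 0.000205). Its partner *Lrrc8c* rose as well (0.39, edgeR FDR = 0.0236). *Slc6a8*, the creatine transporter, fell (-0.22, edgeR FDR = 0.0215). *Slc5a11*, which encodes the other sodium-coupled myo-inositol transporter, SMIT2, had a log2 fold change of -0.09 (edgeR FDR = 0.344) and was chosen after its value was seen.

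Of 9 other tonicity-responsive genes, 8 were tested and 3 rose (37.5%, beside 10.8% higher and 24.4% called of all genes tested), with a median log2 fold change of 0.25. *Sgk1*, a kinase that also responds to corticosteroids, rose from a median of 22.9 to 87.2 CPM without overlap (2.02, edgeR FDR = 4.86e-08). *Aqp2* rose by 0.75 (edgeR FDR = 0.000852) and the heat shock gene *Hspa1a* by 0.48 (edgeR FDR = 0.0413). The other 5 did not pass, and *Ptgs2* was below the filter with at most 35 counts. Among those 5 was the related heat shock gene *Hspa1b* (0.33, edgeR FDR = 0.382), named after its value was seen. Among 10 partners and kinases of NFAT5, *Akap13* (0.50, edgeR FDR = 0.000203) and *Fyn* (0.42, edgeR FDR = 0.00462) rose and *Mapk14*, which encodes p38α, fell (-0.25, edgeR FDR = 0.00368), which makes 3 of 10 called, with a median of -0.01. Of the 4 calcium-regulated NFAT genes, *Nfatc2* fell (-0.75, edgeR FDR = 0.000163) and the other 3 did not pass, with a median of -0.17.

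Of the genes named from these lists, *Impa2*, *Cdo1*, *Lrrc8a*, *Lrrc8c*, *Hspa1a*, *Akap13* and *Fyn* did not pass with limma on log2(TPM + 1), and *Cdo1*, *Lrrc8c*, *Hspa1a* and *Fyn* did not pass with library totals as the scale.

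On the side of urea, 6 of 10 genes of the urea cycle and arginine metabolism were tested, with 1 higher, 1 lower (2 of 6, beside 24.4% of all genes tested) and a median of 0.03. *Arg2*, the mitochondrial arginase that splits arginine into urea and ornithine, rose from a median of 1.79 CPM (1.66 to 2.40) to 8.89 CPM (6.49 to 11.3), with a log2 fold change of 2.23 (standard error 0.14, edgeR FDR = 2.67e-09). The mitochondrial ornithine carrier *Slc25a15* fell (-0.24, edgeR FDR = 0.00733). *Arg1*, *Otc*, *Cps1* and *Nags*, which belong to the hepatic cycle, had at most 3 counts in any mouse and were not tested. *Ass1* and *Asl*, also of that cycle, were abundant and did not pass. *Ass1* had means of 2170 CPM with vehicle and 2356 CPM with SK-124 (edgeR FDR = 0.243). *Asl* had 94.0 and 102 CPM (edgeR FDR = 0.151). Both are named after their values were seen.

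**Figure D5:**
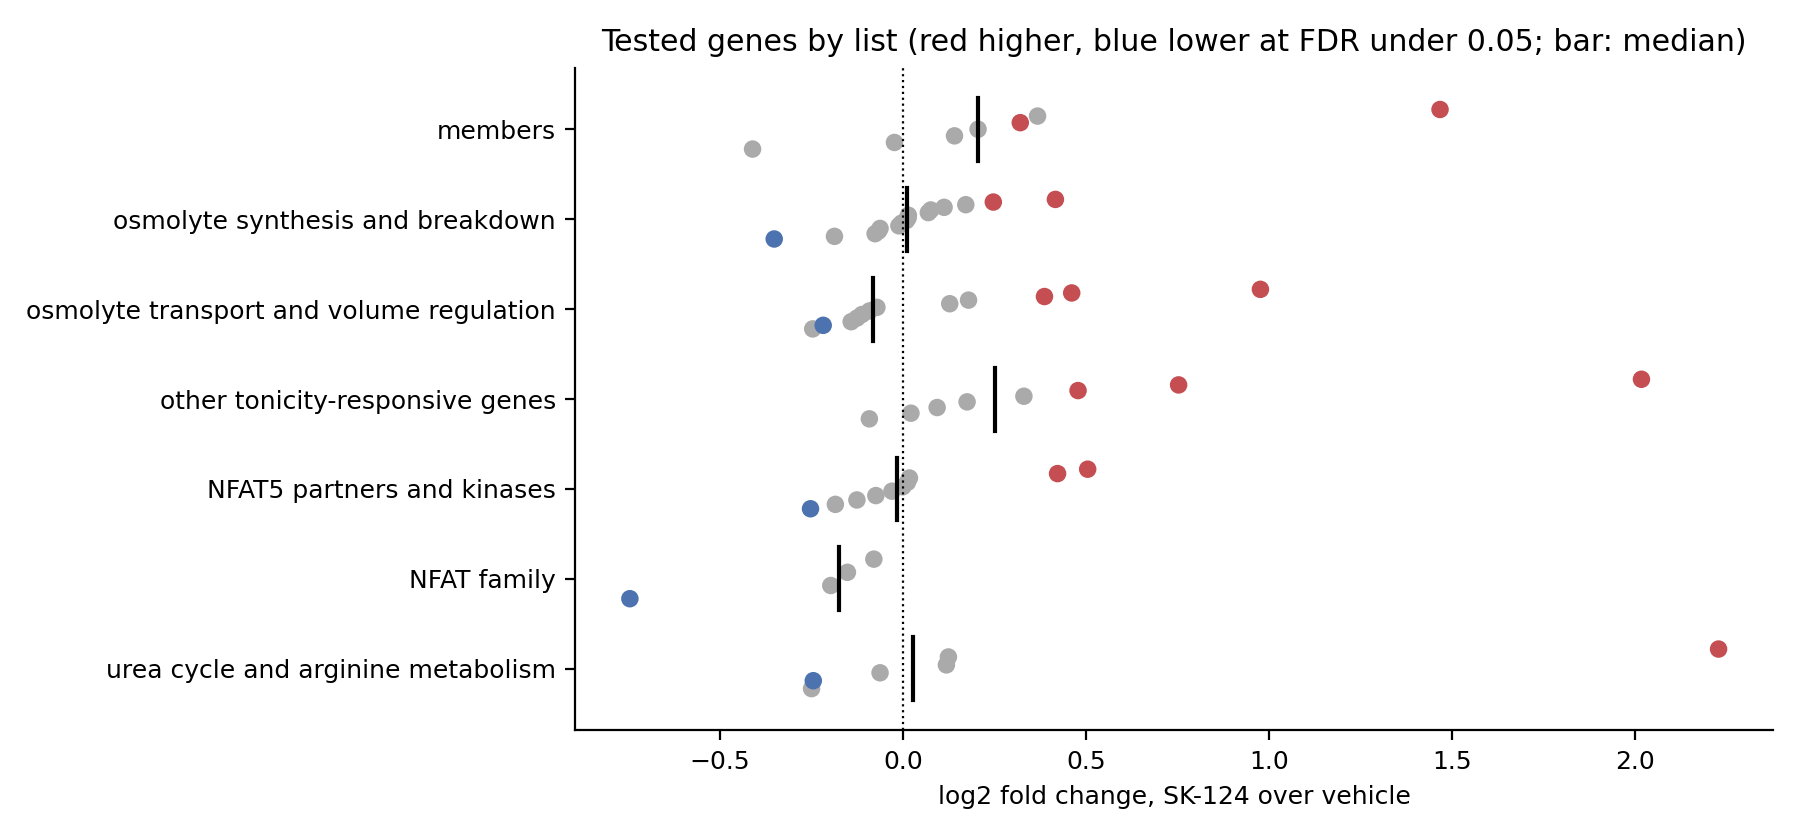
Log2 fold change, SK-124 over vehicle (horizontal axis), of every tested gene in the group of 7 and in 6 lists of related function, with red and blue for higher and lower at an FDR under 0.05, grey for the rest and a bar at each list's median. Most points lie near 0, and the points farthest out are *Arg2* at 2.23, *Sgk1* at 2.02 and *Slc5a3* at 1.47.

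Of the segment markers, *Aqp2* rose and *Avpr2* (-1.17) and *Hsd11b2* (-0.35) fell among 9 for the principal cell, 33.3% of that list beside 24.4% of all genes tested. *Prox1* (-1.17) fell among 5 for the thin limb and *Cldn16* (0.50) rose among 5 for the thick ascending limb, 1 of 5 in each list. *Cldn16* did not pass with limma on log2(TPM + 1) (FDR = 0.0536). Of 7 proximal tubule markers, *Slc34a1* (-0.07) and *Lrp2* (-0.08) included, 0 passed edgeR's test, 0 had an unadjusted p under 0.05, and DESeq2 called 0 and limma on log2(TPM + 1) 2. The medians of these lists were -0.16, 0.12, 0.16 and -0.06, those of the endothelial list -0.21 and of the erythroid list -0.21. Of 5 erythroid markers tested, *Hba-a1* (-0.27) and *Hba-a2* (-0.20) included, 0 passed edgeR's test, with 0 at an unadjusted p under 0.05, and DESeq2 and limma called 0 as well. The summed level of each of the 6 marker lists overlapped between vehicle and SK-124 mice. The single markers *Avpr2*, *Hsd11b2*, *Prox1*, *Cldn16*, *Kdr* and *Tek* did not overlap. The lists held 9, 5, 5, 7, 8 and 5 tested markers, and no overlap held for 13.0% of all genes tested. For the thick ascending limb, 4 of 6 SK-124 mice exceeded the highest vehicle sum. Most of that sum was *Umod* and *Slc12a1* (means of 1995 and 734 of 3001 CPM in vehicle mice). In that list *Umod* (0.21) and *Slc12a1* (0.16) pointed up and *Cldn10* (-0.13) and *Kcnj1* (-0.12) down, and none of these passed edgeR's test. The part of cell content in the values of *Slc5a3* and *Slc6a6* was not tested.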

How the data were processed

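Whole-kidney RNA-Seq of 6 vehicle and 6 SK-124 mice, sequenced on a BGISEQ500 instrument, was used. The authors deposited 1 RSEM gene table per mouse, with expected counts (estimated reads per gene, not normalized), TPM (scaled by RSEM to effective length and library) and RSEM's posterior standard deviation of the count. The submitters' processing notes list STAR 2.7.2b, RSEM 1.3.0, FastQC, DESeq2 and mm10, and whether strand was used in counting is not given in the sources used here. The 7 genes and the lists of related genes were chosen with earlier results of these data known.

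Groups came from the treatment label. After rounding of the expected counts, TMM scaling and filterByExpr, vehicle and SK-124 mice were compared by edgeR's quasi-likelihood (QL) model with treatment as its only term. FDR is the Benjamini-Hochberg adjusted p over the genes tested. For standard errors, the log2 fold change was set over the root of the F statistic. Permutation tests on single genes used log2(CPM + 0.5), and sign-flip tests within mice used log2(TPM + 0.1). Correlations used 100000 permutations within groups. All tests were two-sided. Named genes were the 7, up to 4 called genes with the largest change in each list (the 2 most abundant where none was called), and the 3 genes most like each of the 7, of which 1 is not reported here. As alternatives, RLE factors or library totals replaced TMM, DESeq2 or limma (log2 of TPM + 1 or of TPM + 0.1) replaced edgeR, the filter was dropped or set to 10 counts per mouse, counts were left unrounded, replicate numbers entered as a block, single mice were left out, and SK-124 mice 1 to 3 or 4 to 6 were used alone.

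GENCODE M21 (GRCm38) held 54349 of the 55401 identifiers in the same version, the 7 genes included. Promoter windows are those of RefSeq on GRCm38.p6. Tested on simulated counts with 200 genes of 14159 changed 2-fold, edgeR recovered 91.5% with 4.69% false calls. DESeq2 recovered 90.5% with 12.1% false calls, and limma 91.5% with 3.68%. Far fewer genes changed in the simulation than were called in the data. It does not give the recovery of changes as small as that of *Slc6a6* (1.25-fold). No pair of libraries of a group looked duplicated (smallest chi-square per degree of freedom 4.69 over 30 pairs). Totals of 19244227 to 19771802 gave *Slc6a12* 8 to 28 and *Slc14a1* 23 to 81 counts per mouse. Software was scipy 1.17.1, pandas 2.3.3, numpy 2.4.6 and matplotlib 3.10.9 under Python 3.11.15, and DESeq2 1.42.0, limma 3.58.1 and edgeR 4.0.16 under R 4.3.3.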

Additional observations from a re-analysis of the deposited data

Results flagged for a closer look

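*Akr1b3* in SK-124 mouse 4, at 95.8 TMM-normalized CPM, and *Slc14a2* in the same mouse, at 117.2 CPM, lay far from the other 5 mice of the group, with gaps to the next mouse of 0.656 and 0.630 of the group's range, above Dixon's 95% critical value for 6 samples. Chance flags about 1 in 20 groups, or 0.7 of the 14 groups examined, and 2 were flagged, both in 1 mouse. The values beside them are those of *Aqp2* (239.2 CPM) and of the summed principal cell markers (522 CPM), the highest of the 12 mice in both cases. *Aqp2* is part of that sum, and the other 8 markers summed to 283 CPM, the fifth highest of the 12 mice and inside the vehicle range of 267 to 325 CPM. The mean of these 8 summed was lower in SK-124 mice (260 CPM) than in vehicle mice (294 CPM). In the same mouse, proximal tubule markers summed to 7092 CPM, the lowest of the 12 mice, and thin limb markers to 104 CPM, the second highest. The part of these markers in the flagged values was not tested.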

How the results depend on the processing

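*Slc5a3* passed the test under all 11 alternatives (log2 fold change 1.08 to 1.56) and without each mouse in turn (1.43 to 1.53). *Slc6a6* passed without each mouse (0.26 to 0.36) but not with limma on log2(TPM + 1) or log2(TPM + 0.1) (0.18 and 0.19) nor with SK-124 mice 4 to 6 only (0.18), and each of these 3 left 1 of the 7 genes called in place of 2. Left-out mice kept 2 called. Reversed signs were those of *Nfat5* (0.018) and *Slc14a2* (-0.048) with SK-124 mice 1 to 3 only, of *Slc6a12* with limma on log2(TPM + 1) and log2(TPM + 0.1) (-0.10 and -0.22), and of *Nfat5* without vehicle mouse 2 or 5 or SK-124 mouse 5 (0.0032, 0.032 and 0.012, with -0.088 to 0.032 over all 12), and the cause was not tested. Without each mouse *Akr1b3* ranged from 0.05 to 0.50, lowest without SK-124 mouse 4, *Slc6a12* from 0.03 to 0.28, *Slc14a1* from -0.53 to -0.20 and *Slc14a2* from 0.0042 to 0.32, and none passed. *Slc6a12* could not be tested with at least 10 counts in every mouse. Genes called numbered 3453, 2298 with SK-124 mice 1 to 3 only (fewer samples), and 2960 to 3942 without each mouse. In the 12 other lists together, cell type markers included, 22 of 100 listed genes were called, beside 24.4% of all genes tested. This count was 17 to 29 over the alternatives and 19 to 27 without each mouse. Library totals put the median of all genes tested at -0.12 and limma on TPM at -0.11 and -0.14, and calls then split into 777 higher and 3058 lower, 500 and 2130, and 498 and 2118, beside 1536 and 1917. With the replicate number as a block, *Slc5a3* was at 1.46, *Slc6a6* at 0.31 and *Akr1b3* at 0.24, 3466 genes were called, and no call among the 7 changed. The sample labels used here give no pairing of same-numbered mice, whose deviations from the group means correlated at -0.13 to 0.22. Correlations of this size cannot exclude that same-numbered mice were handled together. DESeq2 called 3581 genes and the same 2 of the 7. At this depth *Slc6a12* had 8 to 28 and *Slc14a1* 23 to 81 counts per mouse, with standard errors of 0.24 and 0.22, close to the 0.23 of the more abundant *Akr1b3*.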
